A study of Mus musculus with 12 samples.

Results

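The replication-dependent histone genes are the clustered genes whose mouse symbols in the older naming begin with Hist1h, Hist2h, Hist3h or Hist4h. They were picked by symbol alone, after RefSeq entries had been joined to symbols and the rows of each symbol summed. No measured value entered the rule, but the genes were chosen with earlier results of these data known. By this rule there were 71 such genes, of which 67 had a row among the 24209 gene symbols or unmatched entries of the table. The 4 others were Hist1h2aj, Hist1h2al, Hist3h2bb and H2ac5-ps. The 67 genes comprised 6 of linker histone H1, 18 of H2A, 18 of H2B, 12 of H3 and 13 of H4, and 54 of them lay on chromosome 13, 10 on chromosome 3, 2 on chromosome 11 and 1 on chromosome 6.

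The core histones H2A, H2B, H3 and H4 form the protein spool around which DNA is wrapped in each nucleosome, and linker H1 binds the DNA between them. The replication-dependent genes supply these proteins in bulk while DNA is copied, whereas variant histones are made from separate genes at all times. Replication-dependent mRNAs mostly end in a conserved 3′ stem-loop in place of a poly-A tail, and the genes occur as many near-identical copies. Most neurons of the adult hippocampus no longer divide.

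RNA was sequenced from the entire bilateral hippocampi of 12 male C57BL/6 mice, which were 10 weeks old at injection and were dissected 10 weeks later. All mice received an AAV vector that expressed GFP from the synapsin promoter, which acts in neurons. The miR-34 experiment compared 3 GFP Ctrl mice with 3 mice given GFP and a miR-34 sponge (GFP-miR-34sp), and the miR-9 experiment compared 3 other GFP Ctrl mice with 3 given GFP and a miR-9 sponge (GFP-miR-9sp). A sponge is an RNA with repeated imperfect binding sites, 8 in these constructs, that sequesters a microRNA family. The deposited columns are marked totRNA for the miR-9 experiment only, while the methods describe poly-A enrichment for the libraries. Experiment, library set and any difference in preparation or counting therefore cannot be told apart.

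Counted reads per mouse ranged from 11029604 to 16934133 in the miR-34 experiment and from 17279620 to 24428477 in the miR-9 experiment. The labels give hippocampal neurons as the cell type, but markers of other cells were present. The summed level of 10 neuron markers was 4008 to 5075 reads per 1000000 counted reads (CPM) and that of 8 astrocyte markers was 2474 to 2900 CPM, whereas 7 blood markers summed to less than 1 CPM in every mouse. Of these blood markers 3 had no read in any mouse, and how much blood the tissue held was not tested. Levels in whole tissue cannot tell fewer cells of a type from less RNA per cell.

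The 3′ stem-loop is shown first because it defines how these mRNAs end. It was searched in the 150 bases after the annotated stop codon on the NCBIM37 (mm9) genome with the GENCODE M1 annotation, and it was found in 63 of 66 genes searched, against 0 of 4556 other coding genes on the same 4 chromosomes. The distance from the stop codon ranged from 21 to 58 bases, with a median of 30. The form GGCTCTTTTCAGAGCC occurred in 39 genes and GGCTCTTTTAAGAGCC in 9, none of them an H4 gene, while the 8 genes with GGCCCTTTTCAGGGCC all encode H4. In the sequences below, capitals mark the 16 bases of the stem-loop, lower case the 5 bases on each side, and the strand is that of the mRNA. Those of Hist1h1c, Hist1h4a, Hist1h4j and Hist3h2a lie within the annotated gene after the stop codon. That of Hist1h2ba lies past the annotated gene end, and that of Hist1h2bc past the end of the exon with the stop codon, in an intron of the annotated spliced transcript.
Hist1h1c, chr13:23831376-23831401, plus strand: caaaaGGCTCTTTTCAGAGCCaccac
Hist1h2ba, chr13:24025594-24025619, minus strand: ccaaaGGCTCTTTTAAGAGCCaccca
Hist1h2bc, chr13:23776511-23776536, plus strand: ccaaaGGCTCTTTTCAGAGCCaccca
Hist1h4a, chr13:23852664-23852689, minus strand: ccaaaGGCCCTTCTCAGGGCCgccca
Hist1h4j, chr13:21827301-21827326, plus strand: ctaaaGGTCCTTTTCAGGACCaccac
Hist3h2a, chr11:58768669-58768694, plus strand: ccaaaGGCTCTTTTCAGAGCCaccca
The 3 genes with no match in this window were Hist1h2an, Hist2h2bb and Hist2h2be. The annotated Hist2h2be gene (chr3:96025044-96027661, plus strand) has a single exon, most of which is 3′ UTR, and the annotated Hist2h2bb transcript (chr3:96073644-96082924, plus strand) is spliced.

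The second feature is the sharing of sequence between genes, which bears on most read counts here, since the reads were 50 bases long. In the coding sequence, a 50-base window was called repeated when it occurred more than once in NCBIM37 on either strand. The median share of repeated coding windows was 73.4% over the 66 histone genes with a transcript, and 0% over 18097 other coding genes. At least 50% of the coding windows were repeated in 50 of the 66 histone genes, compared with 5.05% of the other coding genes. All windows were repeated in 10 histone genes, and none in 6. The lines below show the same coding stretch of H2B and of H4 in several genes, from the GENCODE M1 transcripts, with capitals marking bases that differ from the first line of each set. A read from the first stretch has 15 exact sources among the H2B genes, and a read from the second has 11 among the H4 genes.
Hist1h2bc, coding bases 274 to 323, also in Hist1h2bk, Hist1h2bj and, at 277 to 326, Hist1h2ba: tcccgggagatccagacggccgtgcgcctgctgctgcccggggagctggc
Hist3h2ba, coding bases 274 to 323: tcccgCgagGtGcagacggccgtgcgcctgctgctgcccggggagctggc
Hist2h2be, coding bases 274 to 323: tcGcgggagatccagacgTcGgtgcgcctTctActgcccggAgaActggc
Hist1h4a, coding bases 169 to 218, also in Hist1h4b and Hist1h4h: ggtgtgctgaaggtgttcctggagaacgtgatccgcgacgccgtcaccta
Hist2h4, coding bases 169 to 218: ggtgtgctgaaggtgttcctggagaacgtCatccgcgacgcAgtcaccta
Hist4h4, coding bases 169 to 218: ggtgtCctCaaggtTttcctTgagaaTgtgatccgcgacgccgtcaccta
Hist3h2ba differed from the shared H2B stretch at 3 positions and Hist2h2be at 7, and Hist2h4 and Hist4h4 differed from the shared H4 stretch at 2 and 5. The rule by which the authors counted reads with several exact sources is not given in the sources used here, so counts of single genes with shared sequence are uncertain. In the miR-34 experiment, Hist1h4a and Hist1h4b had the same number of reads in 5 of 6 mice and differed by at most 2 reads. This was the closest of all pairs of histone genes with at least 10 reads in each of these mice. The next pair, Hist1h2bl and Hist1h2bm, matched in 2 of 6 mice, and Hist1h4a and Hist1h4j matched in 1.

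The histone promoters, taken from RefSeq (GRCm38.p6) as 250 bases before to 50 after the gene start, were available for 62 of the genes. The letters CCAAT were present on either strand in all 16 H2B, 18 H2A, 10 H3 and 6 H1 promoters, in 3 of 12 H4 promoters and in 41.0% of all 26963 other promoters. The TATA box letters TATAAA were found in 56.5% of the histone promoters and in 15.6% of the others. The octamer ATTTGCAT was found in 7 H2B and 7 H2A promoters and in no H1, H3 or H4 promoter, against 1.92% of the others. These matches are a description of the letters in the window.

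Per length of the RefSeq entry (RPKM, CPM divided by the entry length in kilobases), few of the histone genes carried most of the signal. The highest mean over the 12 mice was that of Hist3h2a, with 39.5 RPKM, followed by the H2B genes Hist3h2ba with 37.1 and Hist1h2bc with 30.5, and by the linker gene Hist1h1c with 16.2. Next came Hist1h2bg (9.66), Hist1h2bj (6.43), Hist2h2ac (6.14), Hist2h2be (5.87), Hist1h2ba (5.55) and Hist1h2bh (4.39). The order was not the same in both experiments. In the GFP Ctrl mice of the miR-34 experiment Hist3h2a and Hist3h2ba, at 41.8 ± 3.70 and 42.5 ± 1.32 RPKM (SD, n = 3), differed by less than their spread, whereas in those of the miR-9 experiment they were at 37.7 ± 1.31 and 30.7 ± 3.76. Hist1h2ba, the testis-specific H2B gene, stood at 12.3 ± 1.41 RPKM in the former and had no read in the latter. Of its coding windows 38.2% were repeated, so that the source of its reads is uncertain. Of the 67 genes, 6 had no read in any mouse, among them Hist1h2bq, Hist1h2br and Hist1h4m.

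All 67 genes together took 170, 171 and 155 CPM in the 3 GFP Ctrl mice of the miR-34 experiment, in the order of mouse 10, 4 and 8. In the 3 GFP-miR-34sp mice (13, 18 and 3) they took 144, 155 and 166 CPM. In the GFP Ctrl mice of the miR-9 experiment (16, 2 and 8) they took 92.8, 93.7 and 88.7 CPM, and in the GFP-miR-9sp mice (17, 23 and 9) 93.3, 90.7 and 88.0. Every mouse of the miR-34 experiment was thus above every mouse of the miR-9 experiment, and the sponge and GFP Ctrl mice of each experiment overlapped. The classes differed in how far apart the experiments were. In the GFP Ctrl mice the mean level in the miR-34 experiment over that in the miR-9 experiment was 1.43 for H2A, 1.65 for H2B, 1.72 for H1, 5.61 for H4 and 6.79 for H3.

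**Figure D1:**
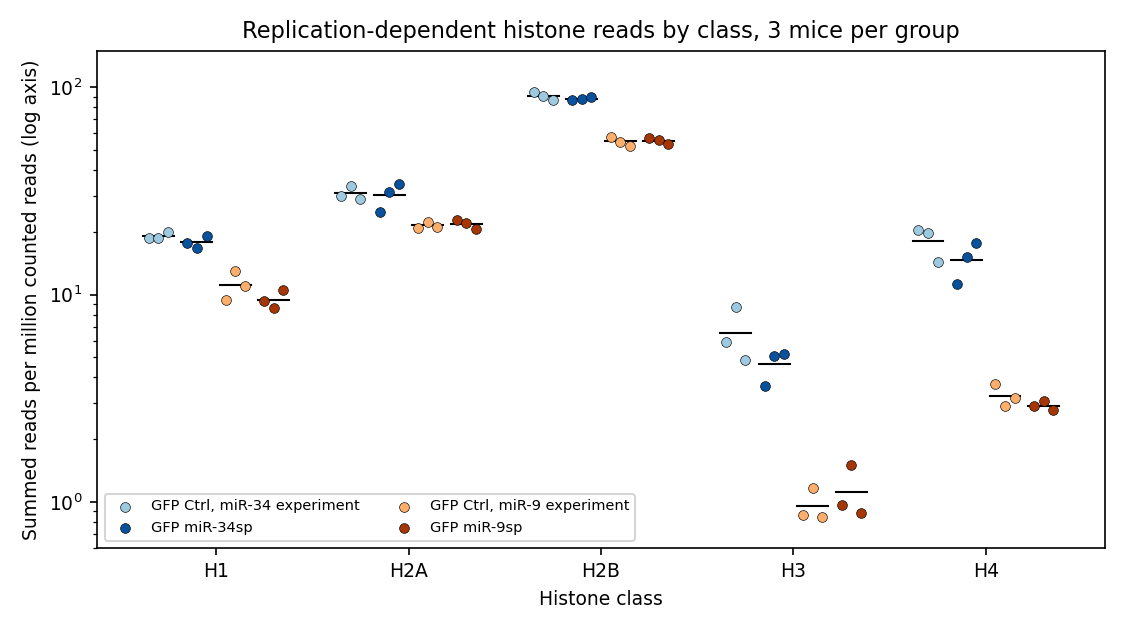
Summed CPM of the histone genes by class (log axis) in each mouse, coloured by group, with a bar at the group mean. All mice of the miR-34 experiment lie above all mice of the miR-9 experiment in each class, and the gap is widest for H3 and H4.

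The difference was smaller for the 5 genes with most reads, Hist1h2bc, Hist3h2a, Hist3h2ba, Hist2h2be and Hist1h1c. They summed to 95.4 ± 1.87 CPM in the GFP Ctrl mice of the miR-34 experiment and to 78.6 ± 2.47 CPM in those of the miR-9 experiment (SD, n = 3). The other 62 genes summed to 69.9 ± 7.10 and 13.1 ± 0.718 CPM. These 5 genes therefore held 57.8% ± 2.07 of the histone reads in the former and 85.7% ± 0.712 in the latter. In the sponge mice the shares were 60.8% ± 2.87 with GFP-miR-34sp and 85.4% ± 0.886 with GFP-miR-9sp, close to those of the GFP Ctrl mice of the same experiment.

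**Figure D2:**
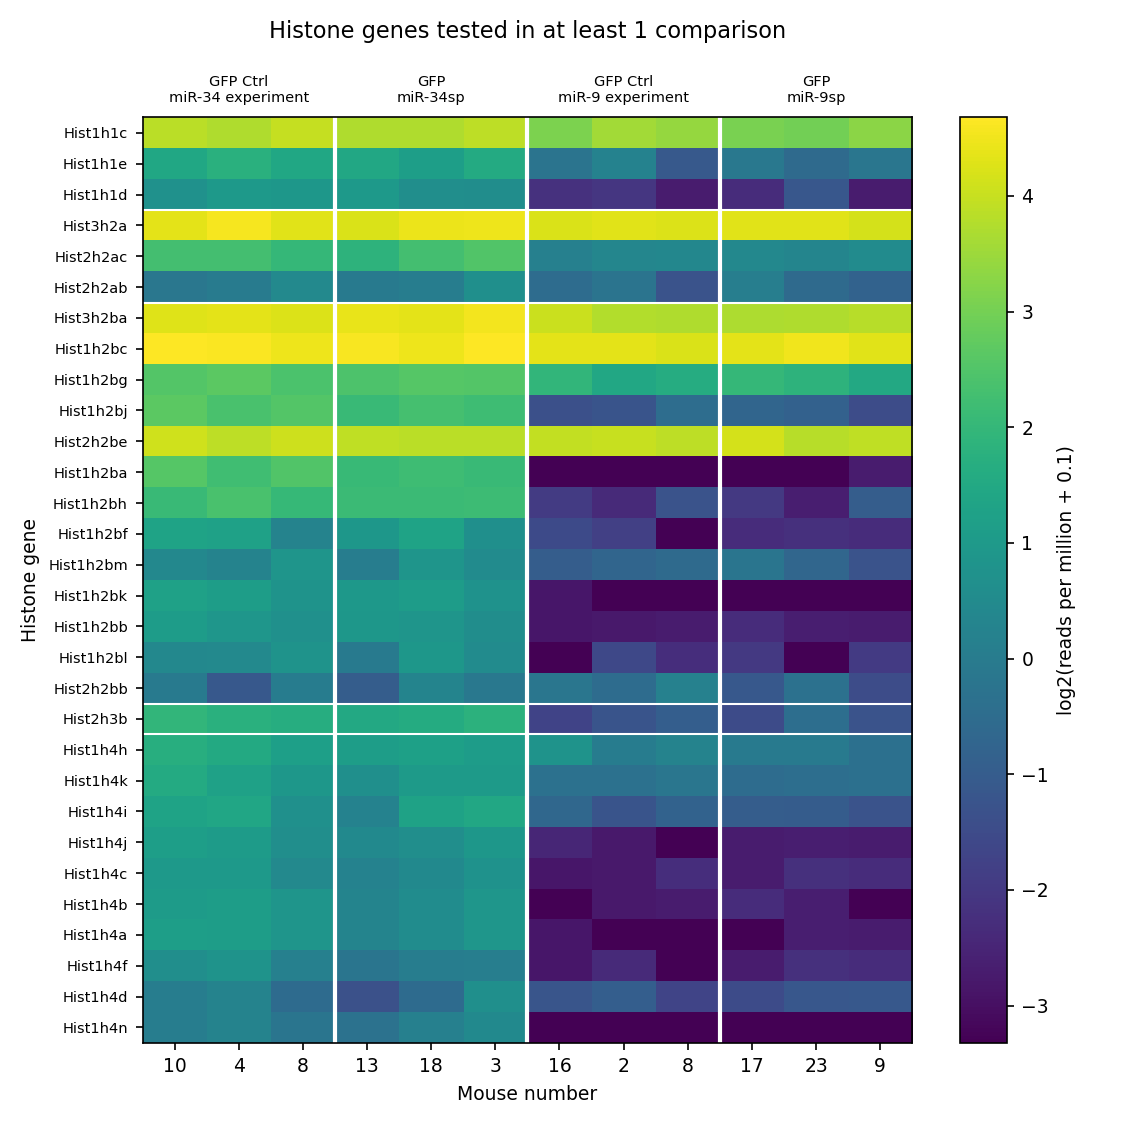
Level of each histone gene that entered at least 1 test, as log2(CPM + 0.1), in each of the 12 mice (columns, by group) with genes ordered by class and mean RPKM. Rows such as Hist3h2a, Hist1h2bc and Hist2h2be are similar across all mice, whereas Hist1h2ba, Hist1h2bk and Hist1h4a are near the floor in the 6 mice of the miR-9 experiment.

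The first comparison asked how the histone mRNAs differed between the GFP Ctrl mice of the 2 experiments, which received the same vector. Genes were tested with edgeR's quasi-likelihood test over all genes with a mean above 10 scaled reads in the 6 mice, and a gene was called at a Benjamini-Hochberg adjusted p under 0.05. Of 67 histone genes 29 were tested, 25 were called lower in the miR-9 experiment and 0 higher, and 4 were not called. Over all 12878 genes tested, 13.5% were called lower and 11.7% higher. The median log2 fold change was -2.31 over the 29 genes and 0.01 over all genes. However, 18 of the 29 passed the read limit only through the miR-34 experiment, where they were higher, so that a difference is built into their selection. Of the 11 with a mean above 10 scaled reads in both groups, 8 were called lower, with a median log2 fold change over the 11 of -0.55, while 13.0% of the 12565 genes that passed in both groups were called lower.

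The 3 linker H1 genes tested were ordered by level in the same way in both experiments. Hist1h1c had 14.4, 13.2 and 15.6 CPM in the GFP Ctrl mice of the miR-34 experiment and 8.56, 11.7 and 10.6 CPM in those of the miR-9 experiment. The groups did not overlap, and the log2 fold change was -0.55 ± 0.12 (SE, edgeR adjusted p = 0.00943). Hist1h1e had 2.64, 3.26 and 2.63 CPM against 0.737, 1.07 and 0.368 CPM, and its log2 fold change was -1.98 ± 0.30. Hist1h1d had 21 reads in each mouse of the former and 3, 3 and 1 in the latter, a log2 fold change of -3.97 ± 0.36. The other linker genes, Hist1h1a, Hist1h1b and the testis-specific Hist1h1t, had at most 3 reads in any mouse and were not tested. All 3 linker genes tested were thus lower in the miR-9 experiment, by unequal amounts. Of these, Hist1h1d passed the read limit only through the miR-34 experiment.

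Among the H2A genes, Hist2h2ac was called lower, with 65, 53 and 46 reads against 25, 25 and 23 reads and a log2 fold change of -2.04 ± 0.18. Hist3h2a had 278, 258 and 235 reads in the miR-34 experiment and 453, 426 and 361 in the deeper miR-9 experiment. Its log2 fold change of -0.20 ± 0.08 was not called (edgeR adjusted p = 0.097). Hist2h2ab was at -0.84 ± 0.36 (edgeR adjusted p = 0.122). The other 15 H2A genes had too few reads to be tested.

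The H2B genes covered the whole range of differences, and 11 of 13 tested were called lower, against 13.5% of all genes tested. Those named in this paragraph passed the read limit only through the miR-34 experiment, so that a difference is built into their selection. Hist1h2ba had 79, 51 and 65 reads in the GFP Ctrl mice of the miR-34 experiment and 0 in all 3 of the miR-9 experiment. Taking 3 reads over the group as the floor, it was at least 116-fold lower in the latter. Hist1h2bk had 31, 23 and 19 reads against 1, 0 and 0, a ratio of 130 with a wide 95% exact interval of 22.6 to 5201 that covers counting error only. Hist1h2bj, with 86, 56 and 67 reads against 7, 7 and 12, differed by a log2 fold change of -3.85 ± 0.25, and Hist1h2bh by -4.57 ± 0.30. In none of these genes did a mouse of the miR-9 experiment reach a mouse of the miR-34 experiment. Hist1h2bb, Hist1h2bf, Hist1h2bl and Hist1h2bm were called lower too, with log2 fold changes of -5.11, -3.65, -3.63 and -1.48.

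Smaller differences were measured for the other H2B genes tested. Hist1h2bc had 345, 272 and 259 reads against 493, 435 and 356, and its log2 fold change was -0.33 ± 0.08 (edgeR adjusted p = 0.00972). Hist3h2ba was at -0.52 ± 0.10 and Hist1h2bg at -0.90 ± 0.16, both called lower. Hist2h2be had 232, 163 and 195 reads against 376, 340 and 279, which per counted read overlapped between the groups. Its log2 fold change was -0.13 ± 0.08 (edgeR adjusted p = 0.305), and that of Hist2h2bb, with 12, 4 and 11 reads against 19, 13 and 20, was 0.07 ± 0.38 (edgeR adjusted p = 0.919). These last genes are the H2B genes in which no stem-loop was found after the stop codon, and neither has a repeated coding window. For Hist2h2bb the annotated transcript used for the windows has 1511 bases, whereas the counted entry has 493. Neither feature is thus shown for the RNA that was counted for this gene. The H2A genes Hist3h2a and Hist2h2ab, each with a stem-loop, were not called either.

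Of the H3 genes Hist2h3b alone had enough reads to be tested. It had 51, 36 and 36 reads against 5, 7 and 8, with a log2 fold change of -3.46 ± 0.27. All 9 H4 genes tested were called lower, against 13.5% of all genes tested. Of these H4 genes, only Hist1h4h and Hist1h4k had a mean above 10 scaled reads in both groups. The other H4 genes and Hist2h3b passed the read limit only through the miR-34 experiment, so that a difference is built into their selection. Hist1h4a had 29, 23 and 20 reads against 1, 0 and 0, Hist1h4b 27, 23 and 20 against 0, 1 and 1, and Hist1h4j 29, 22 and 17 against 2, 1 and 0. Hist1h4c and Hist1h4f, with 62 and 50 reads over the 3 mice of the miR-34 experiment, had 4 and 3 over those of the miR-9 experiment. The smallest differences were those of Hist1h4h (-1.19 ± 0.25), Hist1h4d (-1.47 ± 0.39), Hist1h4k (-1.72 ± 0.25) and Hist1h4i (-2.31 ± 0.30). Hist1h4d was not called with DESeq2 (adjusted p = 0.0832) nor with edgeR when GFP Ctrl mouse 16 or 8 of the miR-9 experiment was left out. The 38 histone genes not tested, with at most 17 reads in any mouse, summed to 9.29 ± 2.84 CPM against 1.94 ± 0.150 CPM (SD, n = 3).

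The histone genes tested were also grouped by their share of repeated coding windows. The 2 histone genes tested with no repeated coding window, Hist2h2bb and Hist2h2be, were not called. Of 8 with 10% to under 50% of the windows repeated, 6 were called lower, and all 19 with 50% or more were called lower, but 4 of the 8 and 14 of the 19 passed the read limit only through the miR-34 experiment. Of the genes above the limit in both groups, 3 of 4 with 10% to under 50% were called lower, with a median log2 fold change of -0.53, and 5 of 5 with 50% or more, with a median of -1.19. Single genes did not follow this order. Hist1h2bc had 97.6% of its coding windows repeated and a log2 fold change of -0.33, whereas Hist1h2ba, at least 116-fold lower, had 38.2%. Over the whole transcript, which reads can also come from, the repeated share was 47.2% for Hist1h2bc and 38.2% for Hist1h2ba.

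Other coding genes were grouped in the same way, but without the limit of a mean above 10 scaled reads in both groups. Their shares thus include any gene that passed through a single experiment. Of 9135 other coding genes tested with no repeated window, 6.91% were called lower and 13.6% higher, with a median log2 fold change of 0.03. Of 648 with less than 10% repeated windows, 18.2% were called lower, with a median of -0.04. Of 620 with 10% to under 50%, 54.7% were called lower, with a median of -0.29, and of 351 with 50% or more, 86.3% were called lower and 0.285% higher, with a median of -1.003. A lower count in the miR-9 experiment was therefore not particular to the histone genes. Whether reads with several sources were counted by another rule in the 2 experiments was not tested. In all, 17 genes had a mean above 10 scaled reads in the miR-34 experiment and below 0.5 in the miR-9 experiment, and 5 of them were histone genes (Hist1h2ag, Hist1h2ba, Hist1h2bk, Hist1h4a and Hist1h4n). The reverse was found for 1 gene, which was no histone gene.

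**Figure D3:**
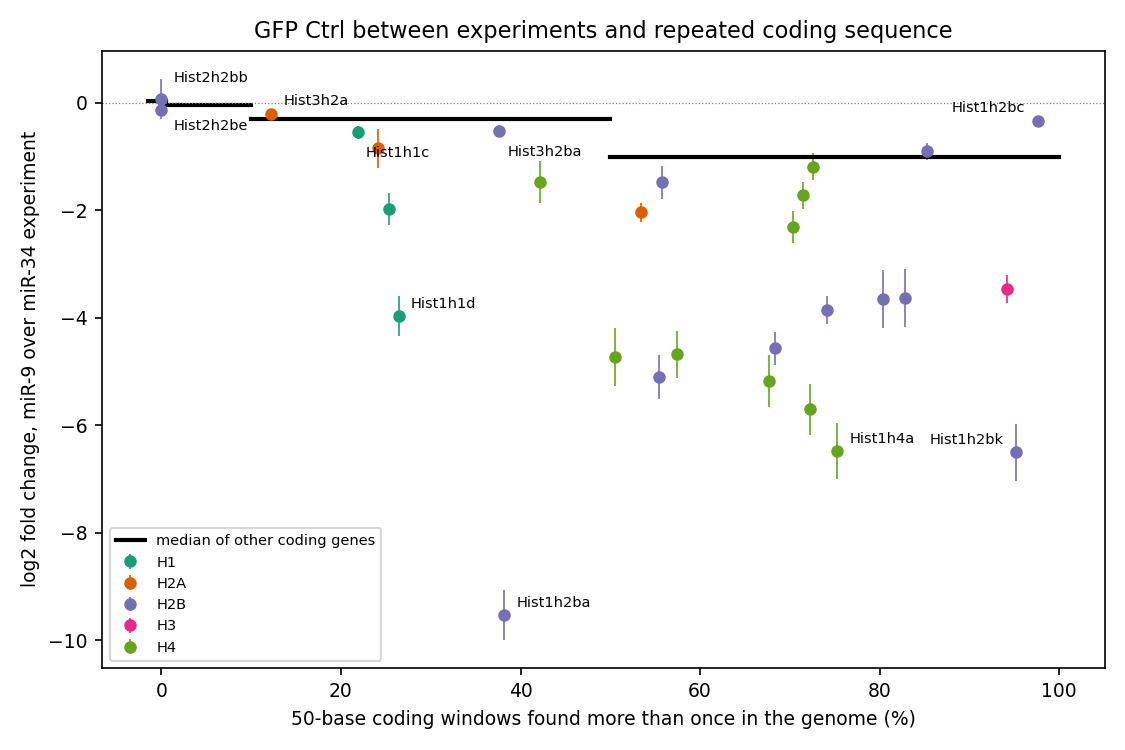
Log2 fold change (± SE) of the 29 histone genes tested between the GFP Ctrl mice of the 2 experiments, against the percentage of their 50-base coding windows that occur more than once in the genome, coloured by class. Black lines give the median of other coding genes in 4 ranges, from 0.03 with no repeated window to -1.003 with 50% or more.

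The 6 sponge mice, none of which entered the comparison above, showed the same experiment difference, although here sponge and experiment cannot be told apart. Of 26 histone genes tested, 22 were called lower in the GFP-miR-9sp than in the GFP-miR-34sp mice and 0 higher, against 12.3% called lower and 8.37% called higher over all 12791 genes tested. Again 15 of the 26 passed the limit only through one group. Of the 11 above it in both groups 7 were called lower, compared with 11.8% of 12498 genes. All 22 were also among those called lower in the GFP Ctrl comparison.

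Values of single genes were close to those of the GFP Ctrl mice. Hist1h2ba had 70, 52 and 56 reads against 0, 0 and 1, and Hist1h2bk had 31, 24 and 21 against 0, at least 33.9-fold lower. Hist1h2bj was at -3.47 ± 0.25, Hist2h3b at -2.95 ± 0.30 and Hist2h2ac at -1.91 ± 0.22 on the log2 scale. The linker gene Hist1h1c was at -0.71 ± 0.11 and Hist3h2ba at -0.73 ± 0.08. Hist1h2bc (-0.24 ± 0.08, edgeR adjusted p = 0.0658), Hist3h2a (-0.15 ± 0.09), Hist2h2ab (-0.73 ± 0.34) and Hist2h2be (0.05 ± 0.10) were not called. The genes not called in either comparison were Hist3h2a, Hist2h2ab and Hist2h2be.

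Genes that act with histones were taken from lists. Of the variant histones, which are made throughout the cell cycle, mostly from polyadenylated mRNAs, 10 of 17 were tested between the GFP Ctrl mice. In the miR-9 experiment 4 were called lower and 0 higher, against 13.5% and 11.7% of all genes tested. The replacement H3 gene H3f3a had 149, 141 and 143 CPM against 29.4, 29.5 and 27.3 CPM, a log2 fold change of -2.38 ± 0.05, and H2az1, which encodes H2A.Z, had 117, 117 and 107 CPM against 23.8, 21.8 and 22.6. H3f3b, which encodes the same protein as H3f3a, was at -0.45 ± 0.04. Of the coding windows of H3f3a 74.4% were repeated in the genome and of H3f3b 47.4%. No such share was obtained for H2az1. The other 6 variant histones tested were not called, and the median log2 fold change of the list was -0.17.

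In the histone mRNA processing list, 1 gene of 19 tested was called lower (Snrpb) and 3 higher, among them Hinfp, a transcription factor of H4 genes, at 0.34 ± 0.08, and Sympk, a scaffold of the 3′ end cleavage complex, at 0.14 ± 0.03. Of 20 histone chaperones tested 2 were called lower (Atrx and Set) and 2 higher, among them Nap1l5. In the S phase and proliferation list 4 of 20 were called lower and 0 higher, against 13.5% and 11.7% of all genes. Pcna, the DNA polymerase clamp, was at -0.79 ± 0.06, Mcm7, a subunit of the replicative helicase, at -0.34 ± 0.09 and Mki67 at -0.63 ± 0.19, and of their coding windows 34.4%, 26.4% and 3.19% were repeated in the genome. Of a list drawn up as other RNAs without a canonical poly-A tail, mostly small nucleolar RNAs, 11 were tested. Of these 0 were called lower and 2 higher, Neat1 at 0.38 ± 0.08 and Malat1 at 0.22 ± 0.07. Whether every counted form of a listed RNA lacks such a tail was not tested.

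Cell type markers were tested between the GFP Ctrl mice as well, where 13.5% of all genes were called lower and 11.7% higher. Of 8 astrocyte markers 4 were called lower and 0 higher, and of 11 microglia markers 1 lower and 2 higher. Of 8 oligodendrocyte and progenitor markers 0 were called lower and 1 higher with edgeR. None of the 9 neuron, 5 endothelial and 7 adult neurogenesis markers tested was called. Of 8 markers of the choroid plexus, a tissue beside the hippocampus, 6 were called lower in the miR-9 experiment, with a median log2 fold change of -1.99. They summed to 648 to 2380 CPM in the GFP Ctrl mice of the miR-34 experiment and to 124 to 750 CPM in those of the miR-9 experiment. Between the sponge mice 0 of 7 were called with edgeR, with a median of 1.77 and sums of 72.4 to 151 CPM with GFP-miR-34sp and 53.9 to 890 CPM with GFP-miR-9sp. The part of these markers in the histone values was not tested.

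The sponge comparisons within each experiment asked whether binding up a microRNA family changed the histone mRNAs. With GFP-miR-9sp, 13 histone genes were tested against the GFP Ctrl mice of the experiment and 0 were called with edgeR or DESeq2. Over all 13045 genes 0 were called with edgeR (0%) and 2 with DESeq2. At an unadjusted p under 0.05 in edgeR 1 histone gene passed, against 4.73% of all genes. The median log2 fold change of the 13 genes was 0.02, and 5 were below and 8 above 0. The 3 with the smallest p were Hist2h2bb, with 7, 12 and 5 reads against 19, 13 and 20 (log2 fold change -0.87 ± 0.39, edgeR adjusted p = 0.97), Hist1h4h with 17, 15 and 13 against 40, 20 and 21 reads (-0.60 ± 0.28), and Hist1h1c with 8.32, 7.70 and 9.60 CPM against 8.56, 11.7 and 10.6 (-0.24 ± 0.13). The most abundant genes were at 0.02 ± 0.07 (Hist3h2a), -0.08 ± 0.10 (Hist3h2ba), 0.11 ± 0.08 (Hist1h2bc) and 0.04 ± 0.09 (Hist2h2be).

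With GFP-miR-34sp, 29 histone genes were tested and 0 were called with edgeR or DESeq2, whereas of all 12492 genes 8 (0.064%) were called with edgeR and 36 with DESeq2. At an unadjusted p under 0.05 in edgeR 1 histone gene passed, against 6.43% of all genes. The median log2 fold change was -0.14, and 25 of the 29 were below 0. The 3 with the smallest p were Hist1h2bj with 71, 57 and 60 reads against 86, 56 and 67 (-0.35 ± 0.15, edgeR adjusted p = 0.751), Hist1h2ba with 70, 52 and 56 against 79, 51 and 65 (-0.33 ± 0.15), and Hist1h4f with 13, 11 and 13 against 20, 18 and 12 (-0.63 ± 0.29). The 10 H4 genes had a median of -0.39 and the 12 H2B genes one of -0.07, but genes of a class share reads and are not independent. Summed H4 levels of 11.2, 15.1 and 17.7 CPM with GFP-miR-34sp overlapped with 20.4, 19.8 and 14.4 CPM in GFP Ctrl mice. Hist3h2a (-0.04 ± 0.09), Hist1h2bc (0.00 ± 0.08) and Hist3h2ba (0.12 ± 0.08) were close to 0. Choroid plexus markers were lower with GFP-miR-34sp, with 4 of 8 called, and their part in the histone values was not tested.

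Whether the sponges differed in effect was tested for 27 histone genes in 1 model of all mice, and 0 were called with edgeR or DESeq2. Over 12835 genes 0 were called with edgeR (0%), and 5 with DESeq2. At an unadjusted p under 0.05 in edgeR no histone gene passed, against 6.1% of all genes. For the abundant genes the difference was 0.07 ± 0.12 for Hist3h2a, -0.19 ± 0.13 for Hist3h2ba, 0.11 ± 0.11 for Hist1h2bc, 0.19 ± 0.13 for Hist2h2be and -0.14 ± 0.17 for Hist1h1c on the log2 scale. For genes at or near 0 reads in the miR-9 experiment, such as Hist1h2ba and Hist1h4a, the standard errors exceeded 1 on the log2 scale, so that a difference was not detectable at this depth.

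**Figure D4:**
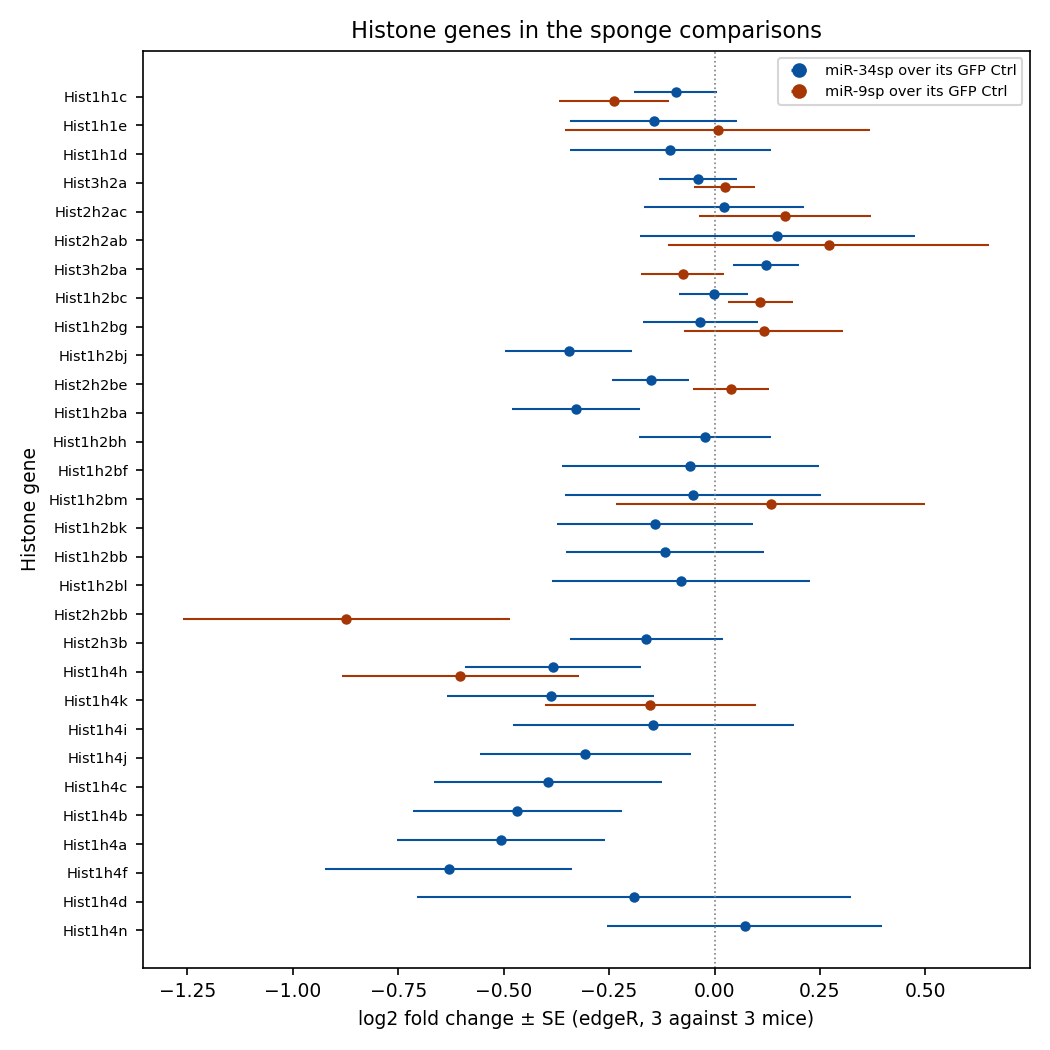
Log2 fold change (± SE) of each histone gene tested in the sponge mice over the GFP Ctrl mice of the same experiment, with GFP-miR-34sp in blue and GFP-miR-9sp in red. None of the 29 and 13 values was called, and the largest in size is that of Hist2h2bb with GFP-miR-9sp, at -0.87.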

How the data were processed

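The authors sequenced hippocampal RNA as 50 bp single-end reads, mapped them to mm9 per the methods (the submitters' processing notes name STAR and mm10) and deposited raw counts of reads per RefSeq entry, with 32850 entries in each of 12 per-mouse tables. The deposited counts are whole numbers and are not scaled. The counting tool, strand use and the handling of reads with several sources are not given in the sources used here. The deposited tables also hold entry lengths, used for RPKM.

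Entries were joined to symbols (98.7% matched) and summed. Each group holds 3 different mice. GFP Ctrl mice without an experiment in the title were assigned to the miR-9 experiment, as the treatment label names 2 GFP-only sets. Totals per mouse, 11029604 to 24428477 counted reads, set the precision, with 3 reads as floor. Intervals (95%, exact) and floors cover counting error only, because PCR copies cannot be told apart. Tests used edgeR 4.0.16 (quasi-likelihood, TMM) in R 4.3.3 on genes with a mean above 10 scaled reads and a Benjamini-Hochberg limit of 0.05, and were tested on simulated data. DESeq2 1.42.0 was an alternative, as were other size factors, other read limits, entries tested one by one, 1 model of 12 mice and leaving out each mouse. Repeated windows and stem-loops were searched in NCBIM37 with GENCODE M1 in Python 3.11.15, for genes whose symbol matched. Windows were matched exactly, with every window of a histone gene and up to 100 spaced windows of another gene. Stem-loops were matched to a 16-base pattern that allowed alternative bases at some positions.

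The genes were chosen by symbol, and they and the lists were chosen with earlier results of these data known. Genes named in the text were, in each comparison, the up to 10 called with the largest and the up to 10 with the smallest fold change, or the 3 with the smallest p where fewer than 3 were called, the 10 with the highest RPKM, all linker genes and up to 3 per list. Others were named after their values were seen, namely Hist2h2ab, Hist2h2bb, Hist1h2ag, Hist1h4n and genes with no row, no read or no stem-loop, and Hist2h4 and Hist4h4 for their sequence.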

Additional observations from a re-analysis of the deposited data

Results flagged for a closer look

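The H4 gene Hist1h4j was lower in all 3 GFP-miR-34sp mice than the mean of their GFP Ctrl mice, and higher in all 3 GFP-miR-9sp mice than the mean of theirs. In CPM after TMM scaling it was at 1.33, 1.49 and 1.81 with GFP-miR-34sp against 2.17, 2.04 and 1.47 in GFP Ctrl mice, and at 0.0498, 0.0581 and 0.0515 with GFP-miR-9sp against 0.0798, 0.0451 and 0. The values of sponge and GFP Ctrl mice overlapped in both experiments. In the miR-9 experiment they stand for 1 read in each sponge mouse and for 2, 1 and 0 reads in the GFP Ctrl mice, so a difference was not detectable at this depth. The log2 difference between the sponge effects was 0.51 ± 0.97 (SE, edgeR unadjusted p = 0.649, adjusted p = 0.962).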

How the results depend on the processing

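With a mean above 100 scaled reads required, few histone genes were left to test, and 3 were called lower between the GFP Ctrl mice and 2 between the sponge mice, with median log2 fold changes of -0.34 and -0.24, and the difference between the sponge effects had a median of 0.063. With every gene that had a read, the medians were -2.21 between the GFP Ctrl mice, -1.66 between the sponge mice, 0.15 with GFP-miR-9sp and 0.23 for the difference between the sponge effects. Leaving out 1 mouse at a time, the median between the GFP Ctrl mice was -2.51 to -2.21 with 23 to 25 genes called lower, and between the sponge mice -2.76 to -1.77 with 17 to 23. The value of -1.77 was that without mouse 3 of GFP-miR-34sp. With GFP-miR-9sp the median was -0.064 to 0.074, and it was below 0 without mouse 17 of that group. Without the 10 genes with most reads in the total, the histone genes took 95.4 CPM in the GFP Ctrl and 94.4 CPM in the GFP-miR-9sp mice of the miR-9 experiment. Of single genes, Hist1h4d between the GFP Ctrl mice and Hist1h2bm between the sponge mice lost their call under 3 and 4 settings, and no named gene reversed its sign under the alternatives run. No histone gene was called in a sponge comparison under any alternative. No paired analysis was possible because the groups of an experiment share no mouse number, and the GFP Ctrl sets share only the number 8. Depth limits the genes near 0 reads in the miR-9 experiment, and p-values measure the spread between 3 mice a group.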
